A study of Mus musculus with 10 samples.

Results

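Fatty acid oxidation and ketogenesis are described here through 32 genes, chosen by name from the pathway. Each of the 32 was matched by gene symbol to the array's annotation, had exactly 1 probe set with that symbol alone, and stands among 19933 genes tested. Livers came from 5 wild-type (WT) mice and 5 mice of genotype Nr1d1-/- (KO), which lack Rev-erb alpha, a nuclear receptor that represses transcription as part of the circadian clock. All were males on C57Bl/6, 10 to 12 weeks old, on normal chow, kept in a cycle of 12 h light and 12 h dark, with livers taken at ZT10 (10 h into the light phase). The WT mice were purchased, whereas the KO line had at least 7 generations of backcrossing, so genotype and origin cannot be told apart. The labels name no tissue-restricted driver for the mutation. Each liver gave 1 RNA sample and 1 Affymetrix Mouse Gene 1.0 ST array. Values are log2 of the intensities that the authors normalized. Each difference subtracts the WT mean from the KO mean on this scale and carries its standard error (SE) from limma. A gene counts as called where its limma p, adjusted by Benjamini-Hochberg over the 19933 genes, is under 0.05.

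Long-chain fatty acids enter mitochondria as carnitine esters, and beta-oxidation then shortens the acyl-CoA chain by repeated rounds of dehydrogenation, hydration, a further dehydrogenation and thiolysis. Peroxisomes run a related pathway for very long and branched chains. In liver the acetyl-CoA produced during fasting feeds ketone body synthesis, and the nuclear receptor PPARalpha activates many genes of all these steps.

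The livers read as hepatocyte tissue in both genotypes. Of 12 hepatocyte markers 10 were measured, with gene means of 11.64 to 13.98 and 0 calls in limma (also 0 at an unadjusted p under 0.05). Their summed linear intensity was 108073 to 112514 in WT and 105877 to 111506 in KO. Summed markers of adipocytes, muscle, kidney, macrophages, sinusoidal endothelium, stellate cells, lymphocytes, neutrophils and red blood cells overlapped between the groups. Of these, adipocyte markers (7 of 8 measured), muscle markers (8 of 8) and kidney markers (5 of 6) had 4, 2 and 3 genes below every array's lower quartile, and 0 calls. At an unadjusted p under 0.05 in limma, the adipocyte marker Fabp4 (0.30) and the lymphocyte marker Cd79a (0.18) were higher. The stellate cell marker Lrat was lower (-0.59). A summed linear intensity weighs bright genes most, and only 2 of 5 red blood cell markers were measured. Sinusoidal endothelium markers (8 of 8 measured) had 0 calls, but 3 were higher in limma at an unadjusted p under 0.05 (Stab2, Tek and Clec4g). Their median difference was 0.19, with 7 of 8 above 0, and their summed linear intensity was 6446 to 8272 in WT and 7101 to 8912 in KO. The cholangiocyte sum did not overlap between the groups, at 624 to 720 in WT and 741 to 945 in KO over 5 of 7 markers. Of these, Sox9 alone was called (0.62). Cftr differed by 0.11, and Krt19, Krt7 and Epcam by -0.02, -0.11 and -0.01. The median difference of the 5 was -0.01, with 2 above 0. The part of either list in the results below was not tested. Nr1d1 itself had a mean of 9.78 ± 0.16 in WT and of 9.92 ± 0.45 in KO (SD, n = 5 each; limma adjusted p = 0.803). No source used here says whether its single probe set covers the deleted part, so the value checks nothing about the genotype. In bulk liver, a change in the number of cells of a type and a change in RNA per cell cannot be told apart.

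All called genes of the set were higher in KO liver, and 19 members were not called. Of the 32 members 13 rose (40.6%) and 0 fell, while 3.17% of all genes tested were called higher and 2.44% lower. The median member difference was 0.19, against 0.01 over all genes, and 30 of 32 differences lay above 0. All KO mice exceeded all WT mice in 16 members, and in 3.99% of all genes. The opposite separation occurred in 0 members and in 3.02% of all genes. No member was lower in limma at an unadjusted p under 0.05 either. Of all members 31 had a mean above 9.10, the upper quartile over all genes, and 7.78% of the genes above that level were called higher. The change was at least 1.5-fold in Vnn1, Hacl1 and Crat, and in 0.813% of all genes in that direction. The member count was 10 to 14 with any 1 array left out, where 452 to 637 of all genes were called higher, against 632 in the main fit. The member count was 4 (Hacl1, Etfdh, Acat1 and Vnn1) without WT replicate 1 and KO replicates 4 and 5, the 3 arrays with the widest spread of values, at a median of 0.19. In that setting 295 of all genes were called higher.

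**Figure D1:**
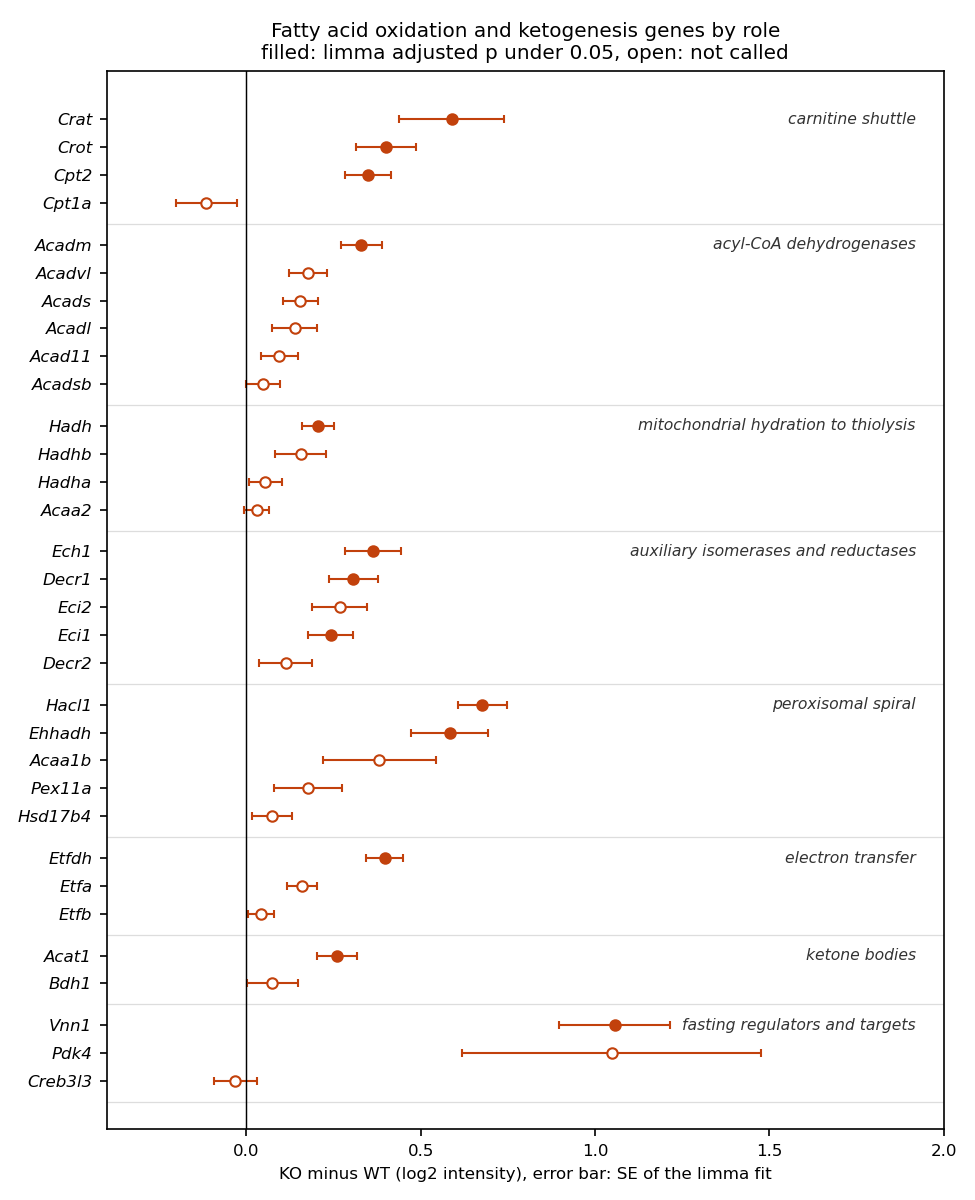
Difference between KO and WT liver (log2 intensity, horizontal axis) for each of the 32 genes, grouped by role; points are limma estimates from 5 mice per group, bars are the SE, and filled points have an adjusted p under 0.05. Of the 32 points 30 lie right of 0, with Vnn1 and Pdk4 farthest at 1.06 and 1.05, but the bar of Pdk4 is the widest at 0.43.

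In the carnitine shuttle, 3 of 4 members rose and the entry enzyme did not. Cpt1a encodes the liver carnitine palmitoyltransferase of the outer mitochondrial membrane, the main control point of oxidation. It read 12.43, 12.41, 12.42, 12.44 and 12.42 in WT replicates 1 to 5 and 12.12, 12.12, 12.64, 12.25 and 12.41 in KO replicates 1 to 5. WT mice were almost identical (SD 0.013), while KO mice spread on either side of them (SD 0.22), and the difference of -0.11 (SE 0.087) was not called (adjusted p = 0.604).

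Cpt2 encodes the inner-membrane partner that turns the carnitine ester back into acyl-CoA. Its WT values were 11.61, 11.68, 11.40, 11.62 and 11.53 and its KO values 11.83, 11.79, 12.07, 11.94 and 11.95. Every KO mouse lay above every WT mouse, and Cpt2 rose by 0.35 (SE 0.066, adjusted p = 0.00791). Crot transfers medium chains to carnitine in peroxisomes. Crot read 12.63, 12.32, 12.45, 12.66 and 12.46 in WT, then 12.68, 12.89, 13.15, 12.91 and 12.90 in KO. The groups did not overlap, although KO replicate 1 sat only just above the highest WT mouse, and the rise was 0.40 (SE 0.086, adjusted p = 0.0170). Crat, the carnitine acetyltransferase, read 9.76, 9.80, 9.51, 9.96 and 9.71 in WT and 10.12, 10.08, 10.83, 10.01 and 10.64 in KO. KO replicates 3 and 5 stood well above the other KO mice, and the rise of 0.59 had a wide error (SE 0.15, adjusted p = 0.0396). Its call was lost without any 1 of 6 arrays (WT replicates 1, 2, 3 and 5, KO replicates 3 and 5; adjusted p up to 0.101), with array weights (0.0611) and with a trend and robust eBayes (0.0563).

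Of the 6 members that encode acyl-CoA dehydrogenases, which open each round of beta-oxidation, only the medium-chain enzyme was called. Acadm read 12.23, 12.20, 12.16, 12.32 and 12.27 in WT and 12.48, 12.49, 12.76, 12.56 and 12.55 in KO. The groups were separated, at a rise of 0.33 (SE 0.059, adjusted p = 0.00532). Acadvl, for very long chains, differed by 0.18 (adjusted p = 0.0850), and Acads, for short chains, by 0.16 (adjusted p = 0.106). All KO mice exceeded all WT mice in both genes, so the separation was complete but small. Acadl, the long-chain enzyme, differed by 0.14 and overlapped because KO replicate 1 (11.10) lay below every WT mouse. Acad11 and the branched-chain enzyme gene Acadsb differed by 0.09 and 0.05, and neither was called.

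The middle and last steps of the mitochondrial spiral moved little. Hadh, the dehydrogenase for short and medium chains, read 13.06, 12.98, 13.01, 13.13 and 13.02 in WT and 13.18, 13.26, 13.29, 13.28 and 13.23 in KO. It rose by 0.21 with separated groups (SE 0.045, adjusted p = 0.0176). Hadha and Hadhb encode the subunits of the trifunctional protein for long chains, and differed by 0.05 and 0.16 (adjusted p = 0.675 and 0.304). The thiolase gene Acaa2 read 13.26 to 13.29 in WT and 13.28 to 13.32 in KO, a difference of 0.03 (SE 0.037, adjusted p = 0.797). The ranges overlapped and were narrow in both groups.

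Auxiliary enzymes, which prepare unsaturated fatty acids for the spiral, were called in 3 of 5 members. Ech1, the dienoyl-CoA isomerase, read 11.82, 11.85, 11.74, 11.89 and 11.49 in WT and 11.98, 12.11, 12.31, 12.10 and 12.10 in KO. It rose by 0.36 with separated groups (SE 0.080, adjusted p = 0.0190). Decr1, the mitochondrial dienoyl-CoA reductase, rose by 0.31 (SE 0.071, adjusted p = 0.0246), from 11.36 ± 0.080 to 11.67 ± 0.15 (SD, n = 5 each), a call lost without WT replicate 3 or KO replicate 4 (adjusted p up to 0.0635). The mitochondrial isomerase gene Eci1 rose by 0.24 (SE 0.064, adjusted p = 0.0475), also without overlap. The Eci1 call was lost without any 1 of 7 arrays (WT replicates 1, 2, 3 and 5, KO replicates 2, 3 and 4; adjusted p up to 0.112), with arrays centred on their medians (0.0616) and with quantile normalization repeated (0.0777). Peroxisomal counterparts were not called. Eci2 differed by 0.27 (adjusted p = 0.0726, but 0.0140 without KO replicate 1 and 0.0488 with a trend and robust eBayes), and Decr2 by 0.11 (adjusted p = 0.532).

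Among 5 genes grouped under the peroxisomal spiral, Hacl1 and Ehhadh rose. Of those that rose, only Ehhadh encodes an enzyme of the spiral itself. Hacl1 encodes the lyase that cleaves hydroxyacyl-CoA in the alpha-oxidation of branched fatty acids. It read 11.88, 11.80, 12.02, 12.05 and 11.98 in WT and 12.44, 12.65, 12.69, 12.54 and 12.78 in KO. The gap between the groups exceeded the spread within either, and the rise of 0.68 (SE 0.071, 1.60-fold) had the smallest adjusted p of the 32 members, 0.000145. Ehhadh, the peroxisomal bifunctional enzyme and a classical PPARalpha target, read 11.80, 11.66, 11.45, 11.76 and 11.61 in WT and 11.83, 12.39, 12.15, 12.37 and 12.46 in KO. KO replicate 1 was close to the highest WT mouse while the other KO mice were well above, and Ehhadh rose by 0.58 (SE 0.11, adjusted p = 0.00815).

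The peroxisomal thiolase gene Acaa1b varied widely, at 10.82, 10.46, 10.17, 11.01 and 11.02 in WT and 10.68, 11.20, 11.22, 11.09 and 11.21 in KO. KO replicate 1 fell inside the WT range, and the difference of 0.38 (SE 0.16) was not called (adjusted p = 0.238). Acaa1a, its close paralog, read 9.58 ± 0.13 and 9.78 ± 0.19 (SD, n = 5 each; difference 0.20, adjusted p = 0.294), and signal could be shared between these probe sets. Pex11a, a peroxisome division factor, and Hsd17b4, the other multifunctional enzyme, differed by 0.18 and 0.07 without a call.

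Promoter windows show the sequence context of these genes. RefSeq windows of assembly GRCm38.p6, from 250 bases before to 50 after a start, were held for 26 of 32 members in 28 windows. Printed first are Hacl1, Ehhadh and Crot, which have the largest rises among called members with a window, and then Acadm and Acadvl, chosen after their motif matches were seen. Capitals mark a match to AGGTCA, the hexamer bound by many nuclear receptors, or to TAGGTCA, a shortened form of the element shared by ROR and Rev-erb receptors. All 5 lie on the minus strand and are written 5′ to 3′ along the gene, at chr14:31640916-31641215, chr16:21787785-21788084, chr5:8997097-8997396, chr3:153944594-153944893 and chr11:70015379-70015678 in the printed order.
Hacl1: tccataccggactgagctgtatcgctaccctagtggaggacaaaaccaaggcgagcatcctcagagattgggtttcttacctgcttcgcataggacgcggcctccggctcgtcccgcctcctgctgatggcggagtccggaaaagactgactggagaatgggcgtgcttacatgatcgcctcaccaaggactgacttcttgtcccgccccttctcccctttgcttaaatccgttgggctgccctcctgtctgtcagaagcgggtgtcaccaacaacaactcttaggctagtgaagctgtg
Ehhadh: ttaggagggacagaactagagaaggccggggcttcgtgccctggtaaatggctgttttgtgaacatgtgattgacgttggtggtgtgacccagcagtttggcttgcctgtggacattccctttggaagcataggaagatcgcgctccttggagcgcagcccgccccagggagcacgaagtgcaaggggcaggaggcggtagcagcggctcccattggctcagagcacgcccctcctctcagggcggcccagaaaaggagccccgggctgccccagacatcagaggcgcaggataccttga
Crot: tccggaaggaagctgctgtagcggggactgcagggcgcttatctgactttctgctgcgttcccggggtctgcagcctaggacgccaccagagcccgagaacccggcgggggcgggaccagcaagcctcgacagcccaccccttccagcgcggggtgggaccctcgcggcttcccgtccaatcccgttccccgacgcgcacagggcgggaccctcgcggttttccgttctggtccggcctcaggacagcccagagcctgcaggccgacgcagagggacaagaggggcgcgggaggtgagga
Acadm: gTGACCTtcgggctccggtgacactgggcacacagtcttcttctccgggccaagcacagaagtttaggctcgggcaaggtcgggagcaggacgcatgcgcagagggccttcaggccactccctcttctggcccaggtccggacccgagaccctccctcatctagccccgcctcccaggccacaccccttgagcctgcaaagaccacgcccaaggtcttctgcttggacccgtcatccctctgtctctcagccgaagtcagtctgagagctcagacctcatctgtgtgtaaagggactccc
Acadvl: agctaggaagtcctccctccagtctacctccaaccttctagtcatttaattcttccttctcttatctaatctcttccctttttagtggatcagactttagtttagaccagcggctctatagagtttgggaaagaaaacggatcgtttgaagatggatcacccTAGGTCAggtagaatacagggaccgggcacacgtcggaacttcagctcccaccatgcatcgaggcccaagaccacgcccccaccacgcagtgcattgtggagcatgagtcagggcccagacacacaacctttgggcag

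The hexamer lies 249 bases upstream of the Acadm start, on the opposite strand, where it reads TGACCT. In Acadvl the longer form begins 88 bases upstream and contains the hexamer. Over both strands AGGTCA was present in 4 of 28 member windows (14.3%; Acadm, Acadvl, Cpt1a and Creb3l3) and in 16.3% of all 32851 windows. TAGGTCA occurred in 1 (3.57%) and in 2.61% of all. The direct repeat of AGGTCA with 1 base between copies, the form bound by PPAR with RXR, was in 0 member windows and in 0.0396% of all. A looser repeat that allows any letter at the fourth base of each copy was also in 0 member windows, and in 0.381% of all. The E-box CACGTG, bound by CLOCK and BMAL1, was in 0 member windows and 7.15% of all. These counts describe letters in a short window and nothing about binding.

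Electrons from the dehydrogenases pass through the electron transfer flavoprotein to its oxidoreductase. The oxidoreductase gene Etfdh read 11.62, 11.56, 11.57, 11.66 and 11.61 in WT and 11.91, 11.93, 12.16, 12.01 and 12.00 in KO. WT mice were tightly grouped, every KO mouse was higher, and Etfdh rose by 0.40 (SE 0.052, adjusted p = 0.000725). The flavoprotein subunit genes Etfa and Etfb differed by 0.16 and 0.04. Etfa was separated between groups and lay near the threshold (adjusted p = 0.0532, but 0.0401 without WT replicate 5, 0.044 without dim genes, 0.0293 as log2(value + 16) and 0.0250 with a trend and robust eBayes), while Etfb was not called (adjusted p = 0.691).

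Of the ketone body genes, Acat1, whose thiolase joins acetyl-CoA units at the start of ketogenesis, rose by 0.26 (SE 0.057, adjusted p = 0.0178). It read 11.90, 11.77, 11.75, 11.86 and 11.83 in WT and 12.10, 12.12, 12.18, 12.11 and 11.90 in KO. KO replicate 5 stood apart, just above the highest WT mouse. The hydroxybutyrate dehydrogenase gene Bdh1 read 11.17 ± 0.055 in WT and 11.24 ± 0.17 in KO (SD, n = 5 each), with KO replicate 5 lowest of all 10 mice, and was not called (adjusted p = 0.716).

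Among 3 fasting-responsive genes, Vnn1 was called. This pantetheinase gene, a PPARalpha target, read 10.86, 10.75, 10.56, 10.80 and 10.63 in WT and 11.31, 11.61, 12.38, 11.98 and 11.60 in KO. All KO mice were above all WT mice, and Vnn1 rose 2.08-fold, by 1.06 (SE 0.16, adjusted p = 0.00179). Pdk4, the kinase that restrains pyruvate oxidation, had a difference of the same size without a call. Its WT values were 7.60, 7.17, 7.03, 9.27 and 7.82, and its KO values 8.25, 8.35, 9.17, 8.29 and 10.05. WT replicate 4 exceeded 4 of 5 KO mice, and the difference was 1.05 (SE 0.43, adjusted p = 0.220). Without WT replicate 4 it was 1.42 and called (adjusted p = 0.0299). Creb3l3, a hepatic transcription factor gene of the fasting response, read 11.24 ± 0.071 in WT and 11.21 ± 0.12 in KO (SD, n = 5 each), at a difference of -0.03 (adjusted p = 0.880).

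**Figure D2:**
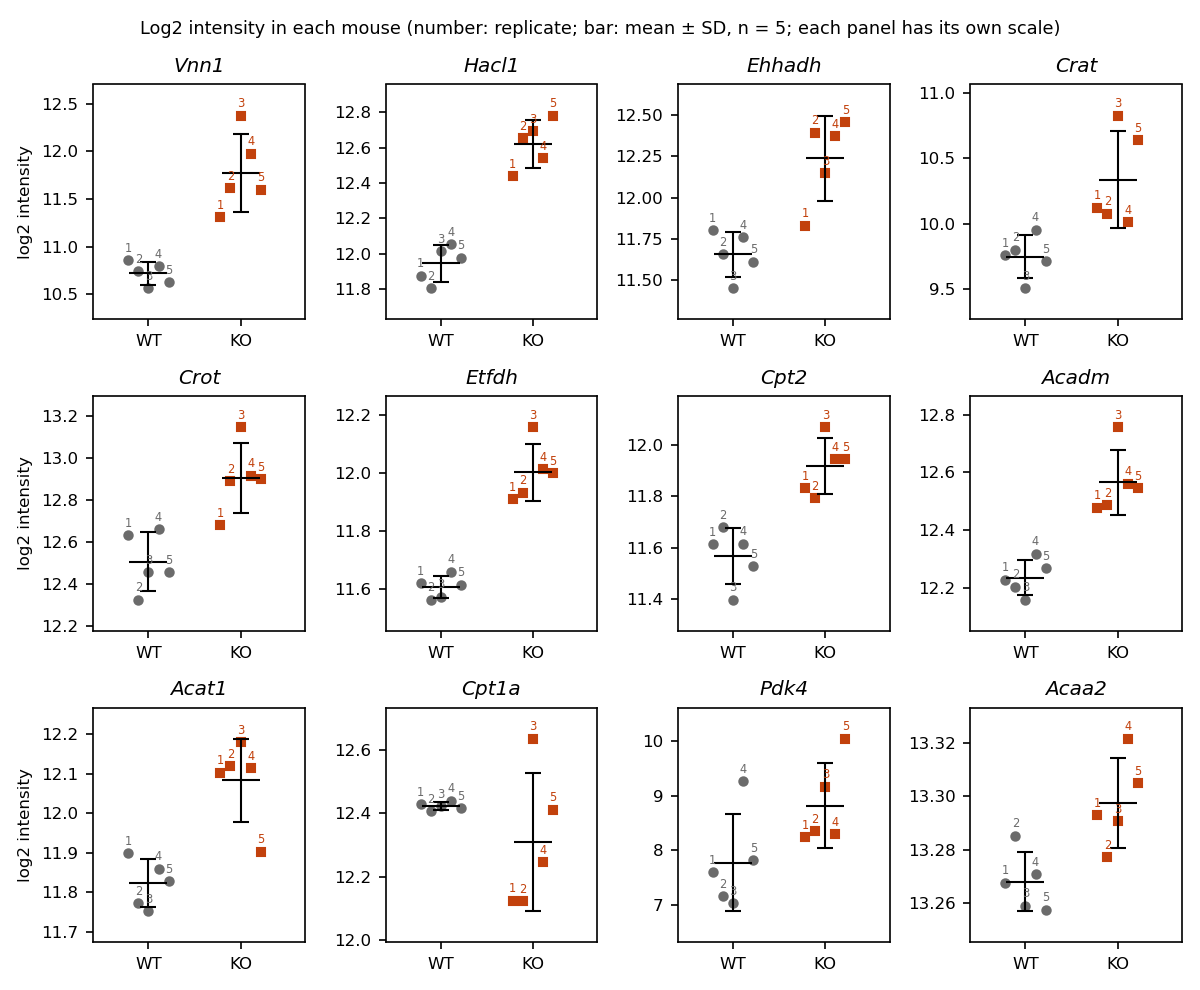
Log2 intensity of 12 genes in each of 5 WT (circles) and 5 KO (squares) mice, with replicate numbers and bars for mean ± SD; each panel has its own vertical scale. Vnn1, Hacl1, Etfdh and Acadm show separated groups, whereas Cpt1a and Pdk4 overlap: KO replicate 3 is the highest Cpt1a value (12.64) and WT replicate 4 exceeds 4 of 5 KO mice for Pdk4.

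The same few mice were highest or lowest in many members, though whether members vary together was not tested. KO replicate 3 was the highest of all 10 mice in 26 of 32 members (81.3%) and in 11 of the 13 called ones, while it was highest in 15.0% of all genes. Relative to the WT mean, the median member difference was 0.37 in KO replicate 3, and 0.12, 0.18, 0.22 and 0.17 in KO replicates 1, 2, 4 and 5. KO replicate 1 was the lowest KO mouse in 19 members, and in 13.5% of all genes. Among WT mice, replicate 4 was the highest in 18 members, and in 16.9% of all genes. WT replicate 3 was the lowest of all 10 mice in 15 members, and in 11.8% of all genes. In the 16 members without overlap, the highest of all 10 mice is always a KO mouse and the lowest a WT mouse. Most genes have no such limit, so for highest or lowest of all 10 the shares over all genes are not a like base. The median over all genes stayed within -0.02 and 0.03 in every mouse. The spread of an array's values was narrowest in KO replicate 3 (interquartile range 2.80). WT replicate 3 (2.81) and KO replicates 1 and 2 (2.81 and 2.82) were close to it, and the others reached up to 2.99. The part of this spread in these orders was not tested.

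Without WT replicate 3 and KO replicate 3 together, a setting chosen after seeing the data, 6 members were called, namely Cpt2, Acadm, Ehhadh, Hacl1, Etfdh and Vnn1. Of all 19933 genes 367 were then called higher, against 632 with all 10 arrays. The median member difference was 0.15 in this setting, against 0.01 over all genes. Leaving out KO replicate 3 alone gave 11 member calls at a median of 0.17, with 516 of all genes higher. Leaving out WT replicate 3 alone gave 10 member calls, also at 0.17, with 457 of all genes higher.

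**Figure D3:**
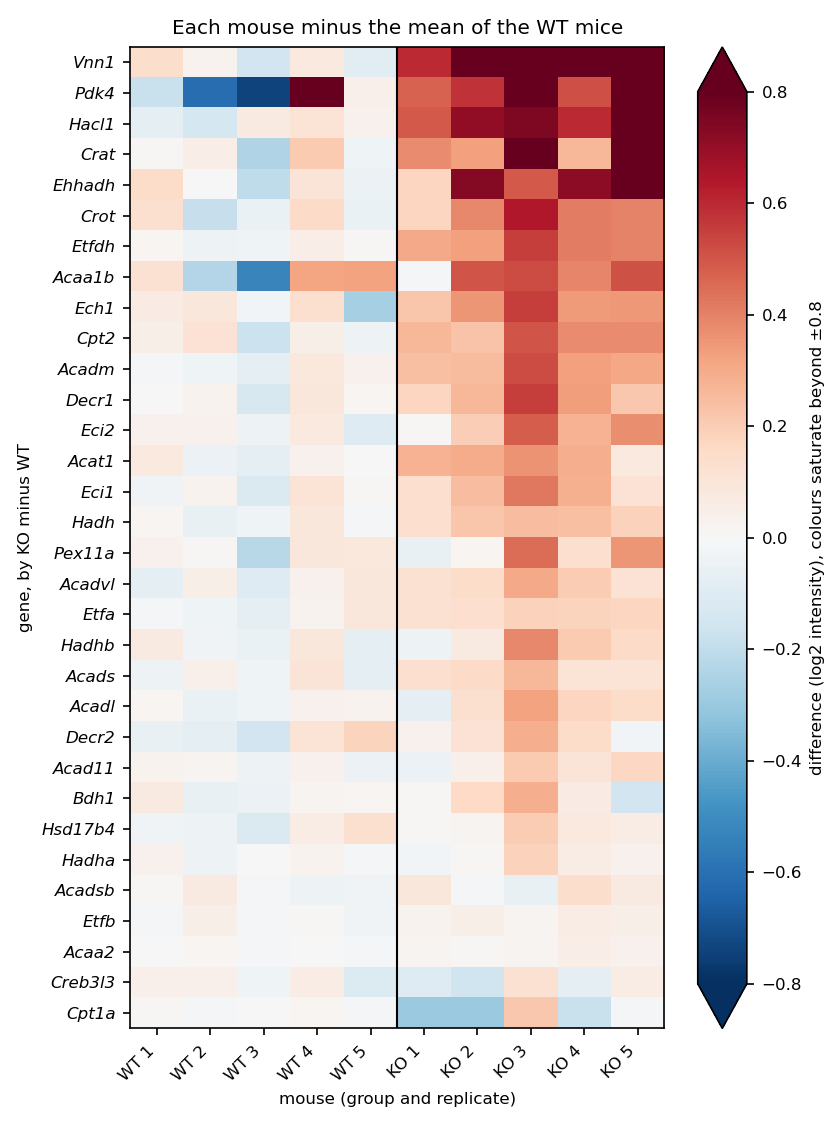
Each mouse minus the mean of the 5 WT mice (log2 intensity, colour) for the 32 genes in order of their difference; columns are mice, the line divides WT from KO, red is above and blue below the WT mean, and colours saturate at the ends of the scale. KO replicate 3 has the highest value in 26 of 32 rows, although saturated colours look alike in some of them. Its median is 0.37, and KO replicate 1 has the lowest median of the KO columns, 0.12.

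Other genes of the pathway were read from lists that share no gene with the members. Among 29 measured enzymes and transporters of oxidation, 10 rose and 1 fell, with a median of 0.16. Acox2, the branched-chain acyl-CoA oxidase of peroxisomes, rose by 0.48 and Acad12 by 0.38, both with separated groups. Acad10 (0.32), the isovaleryl-CoA dehydrogenase gene Ivd (0.28), Acad9 (0.24) and the glutaryl-CoA dehydrogenase gene Gcdh (0.18) also rose. Slc27a2, a fatty acid transporter of liver, rose by 0.16 (adjusted p = 0.0499). The sterol carrier gene Scp2, whose product includes a peroxisomal thiolase, fell by 0.28 (adjusted p = 0.0102). Slc25a20, the carnitine-acylcarnitine carrier, differed by 0.28 (adjusted p = 0.0663, but 0.0442 without KO replicate 1 and 0.0458 with a trend and robust eBayes).

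Of 26 other PPARalpha targets 7 rose and 0 fell, with a median of 0.14. The fatty acid hydroxylase gene Cyp4a14 had the largest rise, 1.95, followed by the fatty acid receptor gene Cd36 (1.57), Cyp4a31 (1.01), the thioesterase gene Acot2 (0.76) and Cyp4a10 (0.72). The Cyp4a genes are close paralogs and may share signal, as may Acot1 and Acot2. The retinol saturase gene Retsat rose by 0.36 and Hsdl2 by 0.30. Fgf21, the fasting hormone, differed by 0.07 and was not called. The receptor gene Ppara itself differed by 0.22 and its coactivator gene Ppargc1a by 0.12 (adjusted p = 0.377 and 0.758). Ppard, the related delta receptor, was the only called gene of 22 regulators, at 0.43 with overlapping groups.

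None of 25 respiratory chain subunits was called in limma at the adjusted threshold, with a median of 0.05; at an unadjusted p under 0.05 there were 5 higher and 1 lower. Of 16 genes of the tricarboxylic acid cycle only the succinyl-CoA ligase gene Suclg2 was called (0.23, median 0.06), and of 13 peroxins only Pex16 (0.34, median 0.06). In the 8 other ketone body genes Slc16a1, a carrier of ketone bodies and lactate, rose by 0.63, and the list's median was -0.09. Aacs, which activates acetoacetate in the cytosol, had a difference of -0.71 with overlapping groups and was not called (adjusted p = 0.0619). No difference between these lists was tested. Over all 7 lists 22 genes were called. The count was 12 without WT replicate 2 or WT replicate 3, and 14, 13, 11 and 13 without KO replicates 2, 3, 4 and 5. It was 14 with arrays centred on their medians. Acad9, Mcee, Pccb, Slc27a2, Ppard and Pex16 each lost the call without any 1 of 9 or 10 arrays (adjusted p up to 0.113). Acad10, Gcdh, Acot2, Retsat and Hsdl2 lost it without any 1 of 4 to 8 arrays, and Suclg2 without KO replicate 4 (0.0509).

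**Figure D4:**
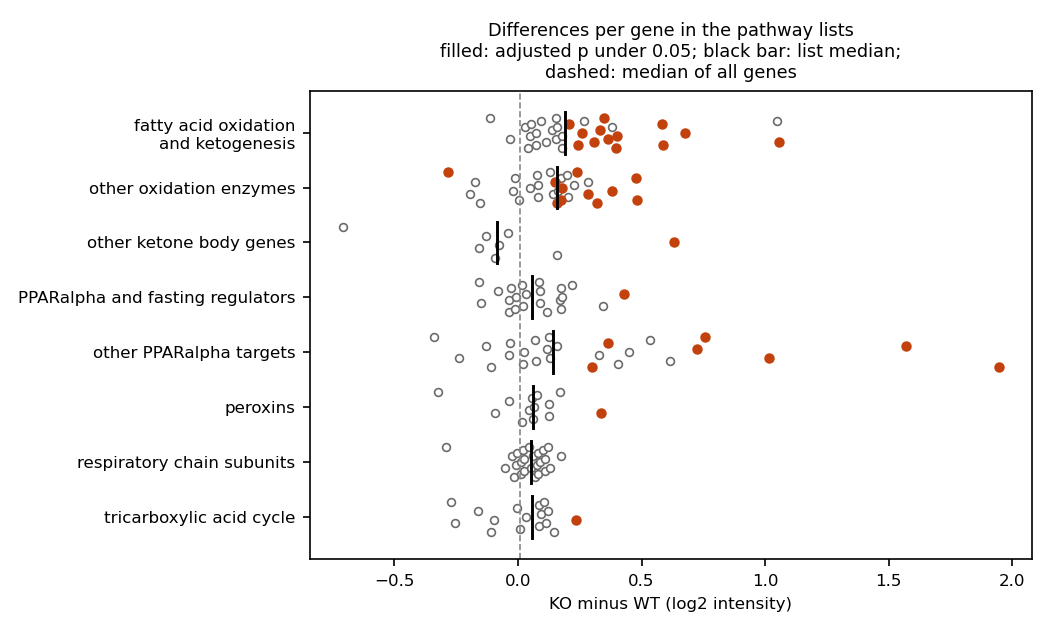
KO minus WT (log2 intensity, horizontal axis) for each gene of the 32 members and of 7 other pathway lists; filled points have a limma adjusted p under 0.05, black bars are list medians and the dashed line is the median of all genes (0.01). The members (median 0.19) and the other oxidation enzymes (0.16) hold most filled points, and respiratory chain subunits (0.05) hold none.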

How the data were processed

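Liver RNA of 10 mice was measured on 1 array each. The authors deposited normalized intensities on a linear scale for 27541 probe sets; per the submitters' processing notes the software was Partek with RMA, and no version or row filter is stated. Without detection calls in the table, no signal over background can be given, and the number of arrays limits the precision. Log2 was taken of the deposited intensities. Probe sets with exactly 1 symbol in the array's annotation (21631) were kept, and the probe set of highest mean stood for each of 19933 genes. The genotypes were compared with lmFit and eBayes of limma 3.58.1 under R 4.3.3, two-sided and without covariates. The limma step was also tested on simulated data. Each array is a separate mouse, so p-values rest on the spread among mice. With eBayes the variance of each gene is drawn toward a value estimated from all genes. For genes of very narrow spread, such as Acaa2, the SE and p therefore do not measure their own spread alone. No batch is named in the labels. The annotation's build is not named, so only the promoter windows carry coordinates.

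Members and lists were chosen with earlier results of these data known, so counts are set beside all genes and no list was tested. Named are all members, called genes of each list, and a few pathway genes and Nr1d1 whatever their p. Alternatives were the probe set summary, dim genes, centring, quantile normalization, log2(value + 16), array weights, a trend in eBayes and arrays left out.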

Additional observations from a re-analysis of the deposited data

Results flagged for a closer look

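Single mice that stood apart from the other 4 of their group were looked for in 120 groups of 5 (60 genes, both genotypes), and 8 were found, of which 4 lie among the 64 groups of the oxidation genes. Chance flags about 1 in 20 groups. Acads was high in KO replicate 3, at 11.41 with the nearest KO mouse at 11.30. Acaa1b was low in KO replicate 1, at 10.68 with the nearest at 11.09. Pex11a was low in WT replicate 3, at 11.32 with the nearest at 11.55. Acat1 was low in KO replicate 5, at 11.90 with the nearest at 12.10.

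Among the other pathway genes, WT replicate 3 was also low for Acad12 (6.64, nearest 6.89) and Pcca (10.55, nearest 10.71). KO replicate 1 was low for the fatty acid hydroxylase gene Cyp4a14 (13.18, nearest 13.53), and KO replicate 3 was high for the peroxin gene Pex16 (11.96, nearest 11.72). WT replicate 3 accounts for 3 of the 8, and KO replicates 1 and 3 for 2 each. What sets these mice apart was not tested.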

How the results depend on the processing

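Of 640 member values recomputed over 20 alternative settings, 598 stayed on the same side of the threshold, 35 lost the call, 7 gained it and 0 called values reversed. Hacl1, Etfdh and Vnn1 were called in all 20. Differences were above 0 in every setting for 29 members and below 0 for 2 (Cpt1a and Creb3l3), and Etfb changed sign under repeated quantile normalization. Each member has 1 probe set, so the choice of probe set summary could not change its difference. Leaving out dim genes and the trend in eBayes could not change it either, so these settings check only the calls. With 1 array left out, 10 to 14 members were called and 0 were lower, their median was 0.17 to 0.23, 452 to 637 genes were higher, 349 to 611 lower, and 11 to 20 genes of the other lists were called. With arrays centred on their medians 14 genes of the other lists were called, against 22. Without the 3 arrays of widest spread 4 members, 295 genes higher, 232 lower and 8 of the other lists were called, and without both replicate 3 arrays, a setting chosen after seeing the data, 6, 367, 272 and 11. Both settings also leave fewer mice. No paired analysis was possible because the labels give no replicate numbers that link a WT mouse to a KO mouse. Signal over background is unknown, so a small difference in a dim gene cannot be told from a probe set near its floor.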

Other observations

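A few genes of amino acid and propionate breakdown, from the list of other oxidation enzymes, are given here by value. They were picked after their values were seen, so their number supports nothing. Pcca, a subunit gene of propionyl-CoA carboxylase, read 10.71, 10.72, 10.55, 10.73 and 10.72 in WT and 11.18, 11.13, 11.18, 11.21 and 11.13 in KO, a rise of 0.48 (limma adjusted p = 9.6e-05). Its partner subunit gene Pccb rose by 0.18 and the next enzyme gene, the epimerase Mcee, by 0.15 (adjusted p = 0.0486 and 0.0425), calls that were lost without any 1 of 9 and 10 arrays. The mutase gene Mmut, the step after that, differed by 0.08 and was not called (adjusted p = 0.383). The isovaleryl-CoA dehydrogenase gene Ivd rose by 0.28 and Gcdh, of lysine and tryptophan breakdown, by 0.18. Of the branched-chain pathway, Acad8 (0.13, adjusted p = 0.174), Hibch (0.23, adjusted p = 0.109) and Acadsb (0.05, adjusted p = 0.736) were not called. In each of the 5 called genes every KO mouse exceeded every WT mouse. KO replicate 3, the highest mouse for 26 of the 32 oxidation genes, was not the highest for Pcca, Pccb, Mcee or Ivd but was the highest for Gcdh.

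The Nr1d1 signal by mouse, given beside the median of the oxidation genes relative to the WT mean, was 10.00, 9.80, 9.60, 9.85 and 9.64 in WT (medians 0.01, -0.01, -0.05, 0.08 and -0.01) and 9.29, 9.77, 10.54, 9.95 and 10.04 in KO (medians 0.12, 0.18, 0.37, 0.22 and 0.17). KO replicate 3 was highest and KO replicate 1 lowest among KO mice in both. KO replicate 5 had a higher Nr1d1 signal than KO replicates 2 and 4 but a lower median than either. Among WT mice replicate 3 was lowest in both, but Nr1d1 was highest in replicate 1 and the median in replicate 4. A link between the signal and the medians was not tested.

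Spread between mice was wider in KO for 21 of the 32 genes (65.6%), and for 51.3% of all genes. For Cpt1a the SD was 0.013 in WT and 0.22 in KO, with WT mice from 12.41 to 12.44 and KO mice from 12.12 to 12.64. No test of spread was made.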
